A study of Mus musculus with 10 samples.

Results

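The 10 genes described here encode the G1 cyclins Ccnd1, Ccnd2, Ccnd3, Ccne1 and Ccne2, the kinases Cdk2, Cdk4 and Cdk6, the kinase inhibitor p27 (Cdkn1b) and the retinoblastoma protein (Rb1). They were chosen by name, as members of the circuit that controls the passage from G1 to S phase, and were found by Ensembl gene ID. All 10 were present among the 55487 genes of each table. The series maps R-loops in the mouse embryonic stem cell line E14 and holds 10 samples in 6 groups. The other 7 samples, which map R-loops, were not analysed here, and every value comes from the 3 RNA-seq replicates of that line. These cells carried no labelled genetic change and were grown in medium with 15% serum, LIF (leukaemia inhibitory factor, which sustains self-renewal), a GSK inhibitor at 3 µM and a MEK1/2 inhibitor at 1 µM. No other condition was sequenced, so no difference between conditions can be given and the error is the spread over 3 libraries. The labels do not say whether the replicates were separate cultures, and p-values therefore measure only the spread between these libraries, which may be technical.

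D-type cyclins bind CDK4 or CDK6 and begin the phosphorylation of RB, which holds E2F transcription factors inactive. Cyclin E with CDK2 continues that phosphorylation, and released E2F drives the genes of DNA synthesis, while p27 binds and restrains cyclin-CDK complexes. Mouse embryonic stem cells are known for a short G1 phase and for tolerating the loss of RB family proteins.

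Replicate 1 was the deepest library with 11420425 estimated counts, followed by replicates 2 and 3 with 6467405 and 5787357, so that 3 counts, the floor used here, stood for 0.263, 0.464 and 0.518 CPM (counts scaled to the library total). All 8 pluripotency markers of the list had a mean of at least 1 TPM (a relative transcript level, scaled by effective length), with summed levels of 1026, 810.9 and 675.9 TPM. Of 7 fibroblast markers, 1 reached that level (Thy1), the summed levels were 4.57, 4.33 and 1.79 TPM, and Col3a1, Lum and Dcn had 0 counts in every library. Of the primitive endoderm (5), trophoblast (4) and mesoderm (3) markers, 0 reached 1 TPM, and of 4 neural markers only Tubb3 did. Pdgfrb (fibroblast), Eomes (trophoblast) and Sox1 (neural) lay just under 1 TPM, at means of 0.977, 0.953 and 0.733 TPM. Each of them had more than 3 counts in every library. Genes of effective length under 100 nt took 60.3%, 65.8% and 63.9% of all TPM in the 3 libraries, which lowers the TPM of every longer gene. In these bulk samples a lower level in every cell cannot be told apart from expression in fewer cells, or in fewer cells of a given cycle phase.

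Cdk4 stood far above the other CDK genes, and the letters before the start sites of the CDK genes are shown because these 3 kinases cover most of the range of levels in the set. The windows searched were the 250 bases upstream of the RefSeq start site (build GRCm38.p6). The bases outside annotated exons around the words are printed for Cdk4 and Cdk6, 5′ to 3′ on the gene's strand, with every CACGTG (E-box) and E2F word in capitals. For Cdk2, whose window shares 226 nt with annotated exons, the 30 bases around its E2F word are printed.

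Cdk4, chr10:127063285-127063533 (+ strand): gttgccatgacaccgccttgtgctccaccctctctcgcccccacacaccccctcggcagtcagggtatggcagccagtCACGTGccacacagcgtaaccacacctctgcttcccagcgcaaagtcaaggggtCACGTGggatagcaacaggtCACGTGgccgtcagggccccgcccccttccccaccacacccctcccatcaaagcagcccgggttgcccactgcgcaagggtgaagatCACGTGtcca

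Cdk2, chr10:128705173-128705202 (- strand): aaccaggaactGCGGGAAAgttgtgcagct

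Cdk6, chr5:3343643-3343731 (+ strand): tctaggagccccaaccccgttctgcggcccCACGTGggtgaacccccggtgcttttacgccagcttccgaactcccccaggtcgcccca

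The E2F words searched were TTTCCCGC, TTTCGCGC, TTTGCCGC and TTTGGCGC on both strands, and CACGTG reads the same on both. The Cdk4 window held 4 E-boxes, ending 167, 113, 93 and 6 bases before the start, and the Cdk6 window held 1. Of 32851 mouse promoter windows of this length, 6.02% held an E-box and 0.0213% (7 windows) held 4 or more. The Cdk2 window held 1 E2F word, GCGGGAAA, the reverse complement of TTTCCCGC, ending 133 bases before the start and inside an annotated exon. At least 1 of the E2F words was in 1.86% of all windows. The Cdk6 window lies within the GENCODE gene, downstream of its annotated start, and shares 57 nt with an annotated exon. The Ccnd3 window at chr17:47593217-47593466 also lies within its gene, and the Ccne1 window runs partly into its gene. Windows were found for 6 of the 10 genes, 7 in all since Ccnd3 has 2. Those of Ccnd3, Ccne1 and Cdkn1b held 0 E-boxes and 0 E2F words, and Ccnd1, Ccnd2, Ccne2 and Rb1 were not matched. A GC box (GGGCGG, both strands) was in 6 of the 7 windows and in 32.7% of all windows. Ccne1 had 4 GC boxes and Cdk2 had 5, where 4.09% of all windows had 4 or more. The 7 windows were GC-rich, from 59.6% to 76.0% G or C where the median of all windows was 52.4%. A CCAAT word (both strands) was in 3 of the 7 windows and in 33.8% of all windows. The motifs were chosen after the sequences were read, and a match describes letters and not binding.

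**Figure D1:**
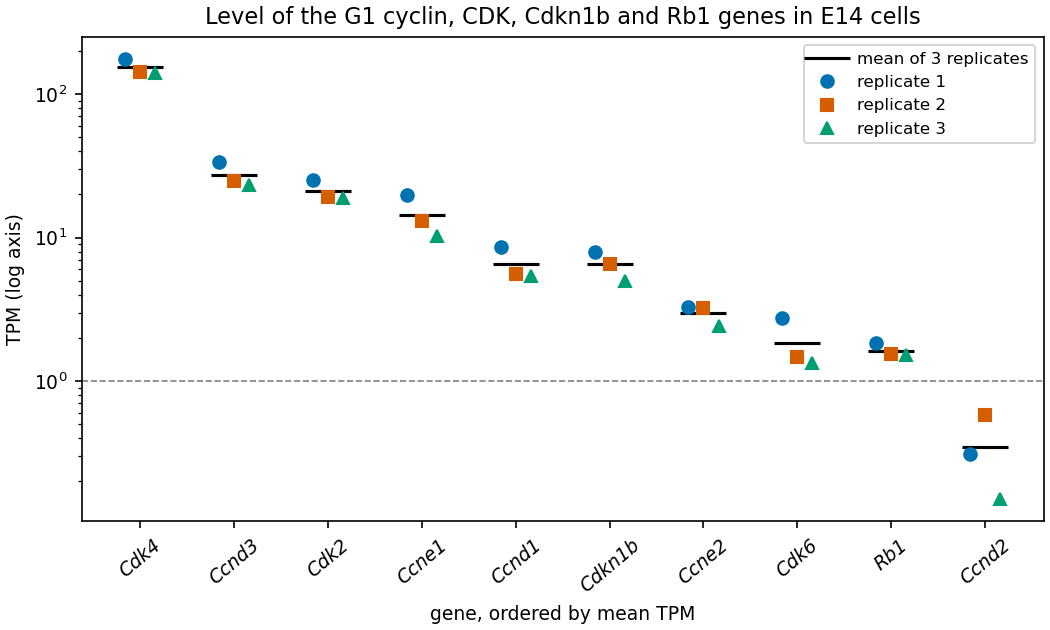
TPM of each gene in each replicate, on a log axis, with genes ordered by their mean; circles, squares and triangles are replicates 1, 2 and 3, black bars are the means and the dashed line marks 1 TPM. Cdk4 lies near 150 TPM in every library and Ccnd2 is the gene below the line in all 3.

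The kinases were carried mainly by Cdk4. Cdk4 (ENSMUSG00000006728, chr10:127063534-127067920, plus strand), the partner of D-type cyclins, had 176.4, 142.31 and 141.4 TPM in replicates 1, 2 and 3, a mean of 153.4 ± 19.9 (SD, n = 3). It ranked 160 by mean TPM among 21974 protein-coding genes. Its mean was 417.6 TPM with genes of effective length under 100 nt left out of the scaling and 783.8 TPM with protein-coding genes alone in it, and the mean of every other member was higher by a like factor, so TPM here ranks genes within these libraries and is no absolute level. Cdk2 (ENSMUSG00000025358, chr10:128697939-128705031, minus strand), the partner of cyclins E and A, had 25.08, 19.16 and 18.81 TPM, a mean of 21.02 ± 3.52 (SD, n = 3). Cdk6 (ENSMUSG00000040274, chr5:3341485-3531008, plus strand), the other partner of D-type cyclins, had 2.74, 1.48 and 1.34 TPM, a mean of 1.853 ± 0.771 (SD, n = 3). The ranges of the 3 kinases did not overlap, and the order Cdk4, Cdk2, Cdk6 held in each library. Cdk4 made up 87.1% ± 0.616 (SD, n = 3) of the summed TPM of the 3 kinases, Cdk2 11.9% ± 0.34 and Cdk6 1.03% ± 0.276. By counts, which leave gene length in, the shares were 68.7%, 24.2% and 7.1%. The deposited length of Cdk4 averaged 756.1 nt, where its annotated transcripts run from 468 to 2053 nt. Within a library Cdk4 exceeded Cdk6 64.4-fold, 96.2-fold and 106-fold, a mean log2 ratio of 6.44 ± 0.38 (SD, n = 3). Cdk4 exceeded Cdk2 by a mean of 7.32-fold, and that log2 ratio of Cdk2 over Cdk4, -2.87 ± 0.05 (SD, n = 3), had the smallest SD of the 8 ratios compared here.

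Among D-type cyclins, Ccnd3 was the main transcript. Ccnd3 (ENSMUSG00000034165, chr17:47505051-47599691, plus strand) had 33.4, 24.99 and 23.26 TPM, a mean of 27.22 ± 5.42 (SD, n = 3). Ccnd1 (ENSMUSG00000070348, chr7:144929931-144939925, minus strand), the D-type cyclin best known as a target of growth factor signalling through MEK and ERK, had 8.61, 5.56 and 5.44 TPM, a mean of 6.537 ± 1.8 (SD, n = 3). Each value of Ccnd3 lay above each of Ccnd1. Ccnd3 was higher within every library, with a log2 ratio of Ccnd1 over Ccnd3 of -1.96, -2.17 and -2.10, or 4.21-fold on average. Ccnd2 (ENSMUSG00000000184, chr6:127125162-127152193, minus strand) had 0.31, 0.58 and 0.15 TPM, from 47, 25 and 17 counts. Ccnd2 was the 1 gene of the 10 with a mean under 1 TPM, at 0.3467 ± 0.217 (SD, n = 3) and at 0.23 without replicate 2, although its counts were above the floor of 3 in every library. With protein-coding genes alone in the scaling its mean was 1.779 TPM. Ccnd3 held 79.9% ± 0.899 (SD, n = 3) of the summed D-type TPM, Ccnd1 19.0% ± 1.25 and Ccnd2 1.04% ± 0.722, from 0.733%, 1.86% and 0.52% in replicates 1, 2 and 3. On average Ccnd3 exceeded Ccnd2 89.6-fold and Ccnd1 exceeded it 21.3-fold, but these folds ran over a wide range, from 9.59 to 36.3 for Ccnd1 over Ccnd2.

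The E-type cyclins were likewise unequal. Ccne1 (ENSMUSG00000002068, chr7:38097984-38107534, minus strand) had 19.8, 13.11 and 10.25 TPM, a mean of 14.39 ± 4.9 (SD, n = 3). Ccne2 (ENSMUSG00000028212, chr4:11191351-11204779, plus strand) had 3.3, 3.24 and 2.43 TPM, a mean of 2.99 ± 0.486 (SD, n = 3). Replicate 1 was highest for both, and the lowest value of Ccne1 was above the highest of Ccne2. Ccne1 exceeded Ccne2 6-fold, 4.05-fold and 4.22-fold within the libraries, a mean log2 ratio of 2.23 ± 0.31 (SD, n = 3). Ccne1 thus held 82.2% ± 3.02 (SD, n = 3) of the E-type TPM. Summed over genes, the D-type cyclins had 42.32, 31.13 and 28.85 TPM and the E-type cyclins 23.1, 16.35 and 12.68 TPM. The D-type total was higher in each library, with a mean fold of 1.99 and a log2 ratio of E-type over D-type of -0.996 ± 0.167 (SD, n = 3). Of the summed TPM of the 5 G1 cyclins, Ccnd3 had 53.2% ± 2.53 and Ccne1 27.5% ± 2.79 (SD, n = 3).

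Cdkn1b and Rb1, which restrain the cycle, were at middle and low levels. Cdkn1b (ENSMUSG00000003031, chr6:134920401-134925513, plus strand) had 7.96, 6.57 and 4.98 TPM, a mean of 6.503 ± 1.49 (SD, n = 3). Rb1 (ENSMUSG00000022105, chr14:73183673-73325822, minus strand) had 1.83, 1.54 and 1.53 TPM, a mean of 1.633 ± 0.17 (SD, n = 3). Rb1 lay below its relative Rbl1 (p107), which had 7.14, 6.77 and 4.22 TPM, and near Rbl2 (p130), which had 1.91, 1.24 and 1.16 TPM. The log2 ratio of Rb1 over Rbl1 was -1.96, -2.14 and -1.46, so Rbl1 was higher in 3 of 3 libraries, 3.62-fold on average. Rbl1 held 65.9% ± 4.91 (SD, n = 3) of the summed TPM of the 3 pocket proteins, the family that binds E2F, and Rb1 18.4% ± 3.29.

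**Figure D2:**
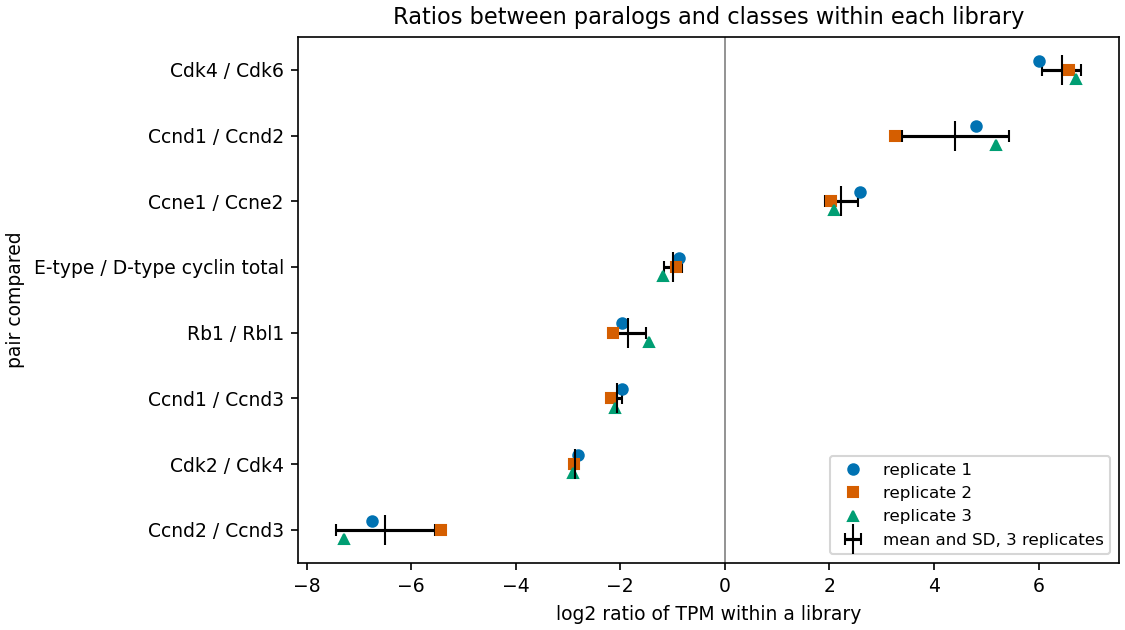
Log2 ratio of TPM within each library for the 8 pairs or totals compared; symbols are replicates and the black marks give the mean and SD of 3 replicates. No pair crosses 0, and both pairs with Ccnd2 have the widest spread.

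In order of mean TPM the genes were Cdk4, Ccnd3, Cdk2, Ccne1, Ccnd1, Cdkn1b, Ccne2, Cdk6, Rb1 and Ccnd2. Of the 9 neighbouring pairs in that order, 7 kept their order in 3 of 3 libraries. Ccnd1 and Cdkn1b could not be ordered, since Ccnd1 was 1.08-fold and 1.09-fold higher in replicates 1 and 3 and Cdkn1b was higher in replicate 2, and neither could Cdk6 and Rb1, where Cdk6 was higher in replicate 1 alone. The ranges of Ccnd3 and Cdk2, of Cdk2 and Ccne1 and of Ccne2 and Cdk6 overlapped between libraries although the order held within each. Ccne2 over Cdk6 rests on the length scaling, with a mean log2 ratio of 0.752 by TPM and -0.273 by CPM, since Cdk6 is the longer gene and CPM is not a level per length. Cdk6 over Rb1 also depends on length, with a mean log2 ratio of 0.111 by TPM and 0.826 by CPM. With 1 common effective length per gene, added after seeing the data, Cdk6 was higher than Rb1 in 2 of 3 libraries. The 8 ratios and 9 neighbouring pairs were tested together by an exact two-sided sign-flip permutation test. With 3 libraries that test cannot go below 0.25, which was its p for every pair with a constant order (Benjamini-Hochberg adjusted 0.283), so no ratio could pass a threshold of 0.05.

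A mean of at least 1 TPM was reached by 9 of the 10 genes, where 44.1% of 21974 protein-coding genes and 19.8% of all genes reached it. The median of the 10 was 6.52 TPM, beside 5.73 TPM for the 9683 protein-coding genes at or above 1 TPM. These genes were picked as known cell cycle genes, so that share is a description.

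None of the 10 genes was called variable between replicates. In the edgeR goodness-of-fit test with Benjamini-Hochberg adjustment over 12577 genes, 0 of the 10 passed an adjusted p of 0.05, where 232 genes, 1.84%, did. At an unadjusted p under 0.05 the count was also 0 of 10, where 6.96% of genes passed. The same goodness-of-fit test was also run with size factors and fitted dispersions from DESeq2. It called 0 of 10 both with adjustment, where 0.891% of genes passed, and without, where 4.25% did. With shares this low over all genes, 0 of 10 sets these genes apart from no others. The smallest p of the set was that of Rb1, 0.0915 unadjusted and 0.97 adjusted in edgeR. A p that misses the threshold does not show that the libraries were alike.

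The order of the replicates depended on the scale. Ccnd3 had 136.9, 135.1 and 134.6 CPM, a spread of 1.02-fold, while its TPM spread 1.44-fold. By TPM, replicate 1 was highest for 9 of the 10 genes and replicate 3 lowest for all 10, where 86.5% of the 9683 expressed protein-coding genes were highest in replicate 1 and 79.4% lowest in replicate 3. By CPM, 7 genes were highest in replicate 1 and 7 lowest in replicate 3, where 46.5% and 61.5% of the expressed protein-coding genes were. By CPM scaled with TMM, edgeR's correction for library composition, 5 genes were highest in replicate 1 and 6 lowest in replicate 3, where 32.5% and 40.4% were. The median coefficient of variation of the 10 genes was 21.4% by TPM, 14.1% by CPM and 9.52% by TMM-scaled CPM. For the expressed protein-coding genes it was 23.8%, 12.1% and 11.2%, so the genes lay below that background on the first and last of these scales and above it by CPM. With 1 common effective length per gene it was 34.1% for the 10 genes and 29.2% for the background.

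Rb1 and Ccnd2 were the genes whose deposited length changed most between libraries. RSEM gives each gene a length that averages its transcripts by their estimated abundance, and TPM divides by that length less a correction, the effective length. For Ccnd2, with 8 annotated transcripts of 115 to 6330 nt, RSEM's effective length came to 5539.15 nt in replicate 1, 2285.94 nt in replicate 2 and 5906.34 nt in replicate 3. Its CPM was 4.115, 3.866 and 2.937, with exact 95% Poisson intervals of 3.02 to 5.47, 2.5 to 5.71 and 1.71 to 4.7 that overlap and cover counting error only. Replicate 2 was therefore the library with the highest Ccnd2 TPM and the shortest effective length, and was not the highest by CPM. With 1 common effective length per gene, an alternative added after seeing the data, the SD of the log2 ratio of Ccnd1 over Ccnd2 was 0.0328 in place of 1.02, around a mean of 4.51.

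For Rb1 the change went the other way. Its CPM was 19.61, 18.4 and 9.849 (Poisson intervals 17.1 to 22.4, 15.2 to 22 and 7.46 to 12.8), from 224, 119 and 57 counts, so the interval of replicate 3 lay below those of both others, although edgeR did not call the gene variable. Its effective length was 4518.89, 4079.73 and 1967.28 nt, and its TPM accordingly spread only 1.2-fold where its CPM spread 1.99-fold. In replicate 1 the deposited length of Rb1, 4656 nt, was that of its longest annotated transcript, and in replicate 3 it was 2100.01 nt. An effective length that differed more than 2-fold between libraries was found for these 2 of the 10 genes and for 1.1% of 9675 expressed protein-coding genes. Those 9675 genes had a mean of at least 1 TPM, so Ccnd2 is not among them and the 2 shares are not of like genes. The other 8 genes differed by at most 1.39-fold. Whether the transcripts in use differed between libraries was not tested.

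**Figure D3:**
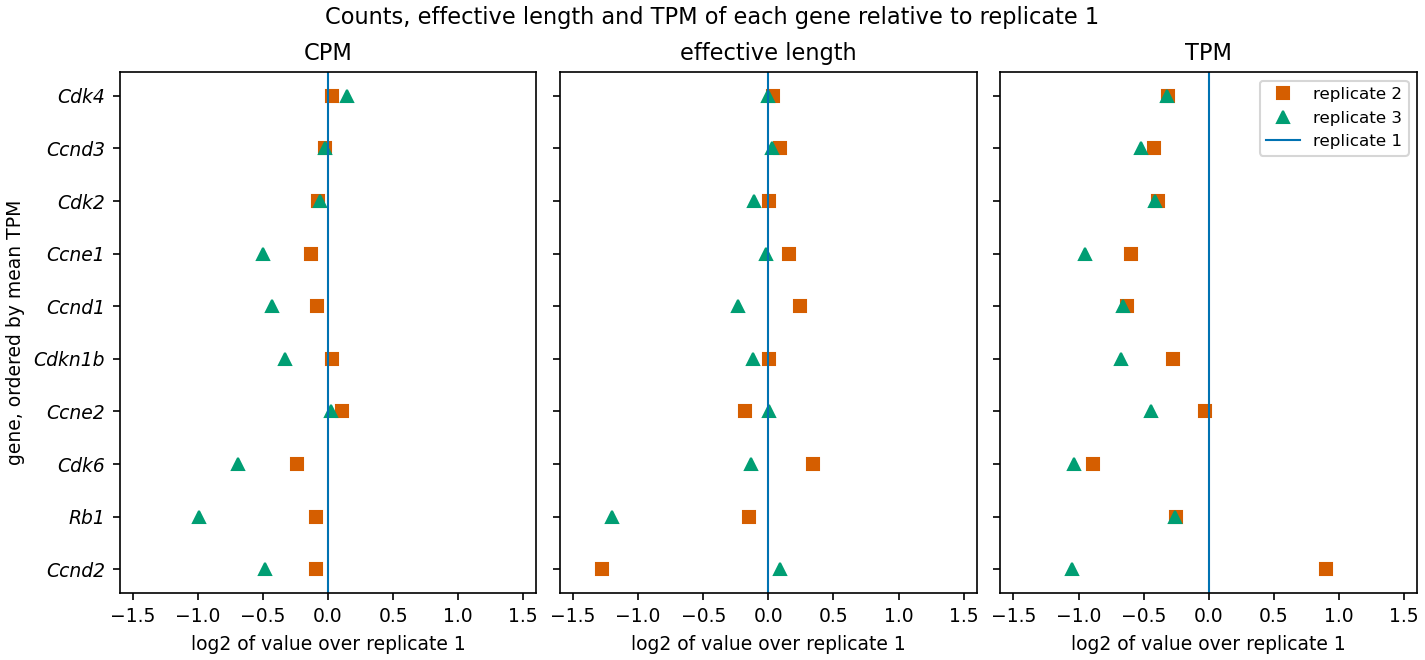
For each gene, the log2 of replicates 2 and 3 over replicate 1 in CPM, effective length and TPM; squares and triangles are replicates 2 and 3 and the vertical line is replicate 1. Ccnd2 in replicate 2 and Rb1 in replicate 3 lie more than 1 log2 unit to the left in effective length.

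Gene length also went with the deviation of whole libraries. For 8300 genes averaging 100 counts or more, the log2 deviation of a library from the gene's mean had a Spearman's rho with gene length of 0.461 in replicate 1, 0.225 in replicate 2 and -0.467 in replicate 3. These are descriptions across genes, not over independent replicates, and a gene's 3 deviations are tied because they sum to 0. Cdk4, whose mean length of 756.1 nt put it in the shortest decile, was 0.203 above its mean in replicate 3, where the median of that decile was 0.241. Cdk6, in the longest decile, was at -0.267 there, where the median of its decile was -0.153. Rb1 was at -0.515 in replicate 3, where its decile had a median of -0.0659. With the length trend removed, 0 of the 10 genes passed the goodness-of-fit test in edgeR, where 1.38% of genes passed with adjustment and 6.19% without, and the adjusted p of Rb1 was 1.

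**Figure D4:**
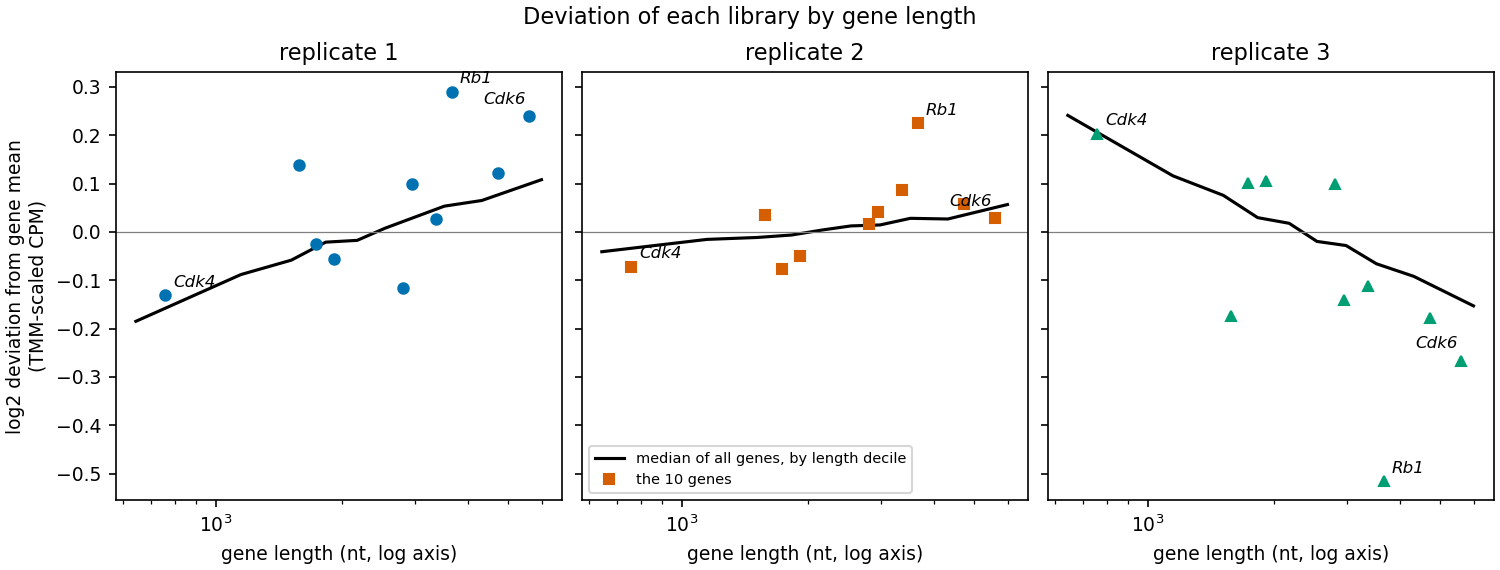
Log2 deviation of TMM-scaled CPM from each gene's mean against gene length (log axis), 1 panel per replicate; symbols are the 10 genes and the line joins the medians of the 8300 genes in 10 length classes. The line falls with length in replicate 3, and Rb1 lies at -0.515, below it.

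Neighbouring genes may limit the certainty of some counts. The libraries were directional, but the strand setting of the counting is not given in the sources used here. Exons of 8 of the 10 genes overlap exons of another annotated gene on the opposite strand, and for 6 of these the other gene had more than 3 counts. For Ccnd1 it was LTO1 (117, 49 and 44 counts, 1100 nt of shared exon), for Ccnd3 Bysl (447, 270 and 210), for Ccne2 Ints8 (1248, 672 and 595), for Cdk2 Pmel (131, 63 and 76), for Cdk4 Tspan31 (741, 393 and 380) and for Rb1 Rcbtb2 (54, 22 and 40) and Lpar6 (16, 14 and 13). Ints8 and Rcbtb2 bear most on the weakly expressed members, since Ccne2 had 248, 151 and 128 counts and Rb1 in replicate 3 had 57. Ccne1 and Cdkn1b overlap no annotated gene. The estimated counts of all 10 genes were whole numbers in every library (within 0.005), and those of the overlapping genes named here were whole too. Fractional estimates did occur for other genes, such as Nanog with 11988.6 in replicate 1. Whether any read was divided between a member and its neighbour was not tested.

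Of 49 further genes of the pathway in 8 lists, 45 had a mean of at least 1 TPM, where 44.1% of protein-coding genes and 19.8% of all genes did. In the edgeR test 46 entered, 0 passed an adjusted p of 0.05 (1.84% of all genes tested did) and 2 had an unadjusted p under 0.05 (6.96% did). Of the other CDK inhibitors, 3 of 6 reached 1 TPM. Cdkn1a (p21) had 18.76, 13.09 and 9.62 TPM, above Cdkn1b in every library. Cdkn2a, which encodes p16 and p19ARF from 1 locus, had 3.97, 4.86 and 4.36 TPM. Cdkn2d (p19INK4d) had 2.3, 2.83 and 2.59 TPM, and Cdkn1c, Cdkn2b and Cdkn2c were each at or below 0.49 TPM in every library.

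Of 10 E2F and DP genes, 9 reached 1 TPM. Tfdp1, the DNA-binding partner of E2F proteins, was highest at 40.1 ± 6.54 TPM (SD, n = 3), and E2f2 lowest at 0.663 ± 0.232 TPM (SD, n = 3). The repressor E2f4 had 22.31, 18.57 and 12.99 TPM and the activator E2f1 had 8.02, 6.14 and 4.68 TPM. The pathway genes with an unadjusted p under 0.05 were E2f8, with 21.2, 22.6 and 11.3 TMM-scaled CPM, and E2f7, with 14.9, 17.5 and 8.48, both repressors that act in S phase. Their adjusted p were 0.479 and 0.622 in edgeR. All 7 E2F target genes of S phase entry reached 1 TPM, and the replication clamp gene Pcna was highest at 91.0 ± 5.15 TPM (SD, n = 3).

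Ccnb1, the mitotic cyclin B1, had 103.96, 93.93 and 87.93 TPM and Ccna2, cyclin A2, had 54.23, 44.26 and 41.1 TPM, each above every G1 cyclin in each library. Ccnb2, cyclin B2, was lowest of that list with 33.0, 27.06 and 20.31 TPM, below Ccnd3 in replicates 1 and 3 and above it in replicate 2. Cdk1, their mitotic kinase, had 47.07, 46.25 and 41.84 TPM, between Cdk4 and Cdk2. The 6 genes of the DREAM and MuvB complexes, which repress cell cycle genes with Rbl1 and Rbl2 or activate them with Mybl2, all reached 1 TPM, from Lin37 at 4.59 ± 2.17 to Rbbp4 at 56.9 ± 16.4 TPM (SD, n = 3). All 6 genes that set CDK phosphorylation did so, from Pkmyt1 at 3.66 ± 1.68, an inhibitory kinase, to Cdk7 at 17.0 ± 3.96 TPM (SD, n = 3), the activating kinase. All 8 genes for the turnover of G1 regulators did so. Skp2, the ubiquitin ligase subunit that targets p27, had 5.66, 4.29 and 4.18 TPM, and its cofactor Cks1b had 37.84, 34.04 and 31.89 TPM. Fbxw7, which targets cyclin E, was lowest of that list at 2.54 ± 0.576 TPM (SD, n = 3), and Skp1a highest with 83.23, 77.15 and 55.58 TPM.

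**Figure D5:**
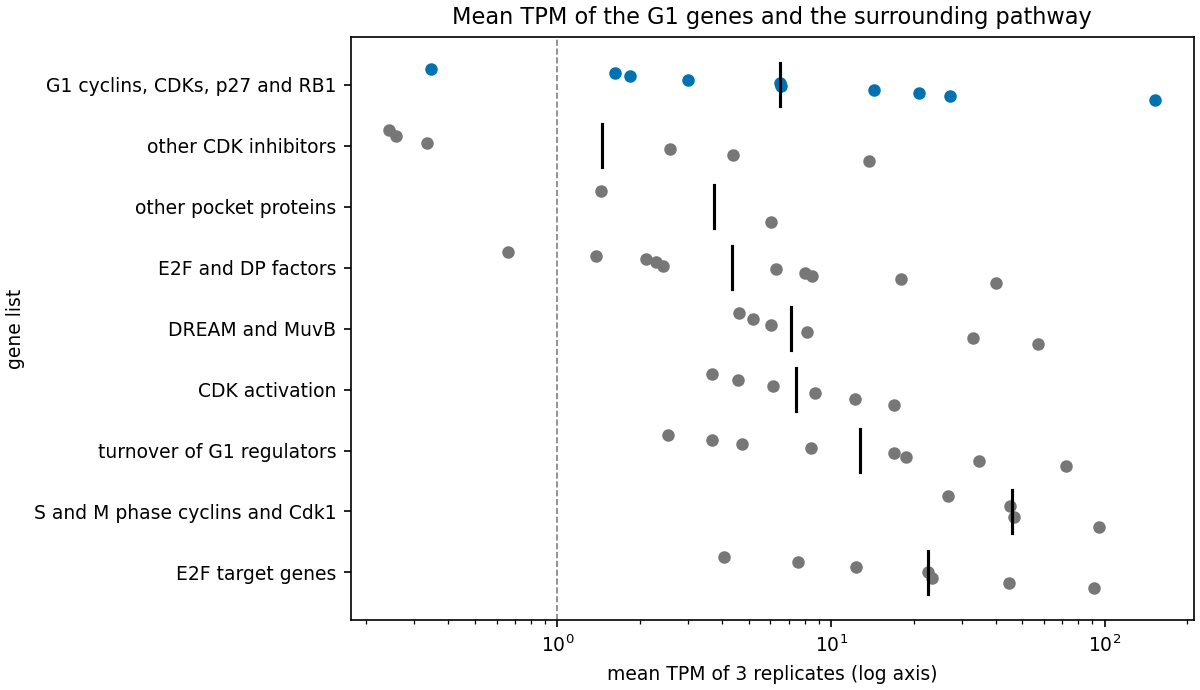
Mean TPM over 3 replicates (log axis) of each gene in the set (blue) and in 8 pathway lists (grey); black bars are list medians and the dashed line marks 1 TPM. The medians run from 1.45 TPM for the other CDK inhibitors to 45.8 TPM for the S and M phase cyclins with Cdk1.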

How the data were processed

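The members and gene lists were chosen with earlier results of these data known. Per the labels' protocols, Trizol RNA was DNase-treated, depleted of rRNA and made into directional libraries. Per the submitters' processing notes, the tools include STAR and RSEM and the build is mm10; versions, annotation release and strand setting are not given in the sources used here. Per the file headers, the authors deposited, for each library, an expected count (estimated reads, not normalized), TPM, FPKM (not used) and a length and effective length per gene. Names and coordinates came from GENCODE vM21 (GRCm38) by Ensembl ID, with 55227 of 55487 matched, and promoters from RefSeq (GRCm38.p6).

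The deposited TPM was averaged over the 3 libraries, and ratios used no pseudocount. Expected counts were rounded for edgeR 4.0.16 (R 4.3.3; TMM, filterByExpr, intercept-only design, trended dispersion). The test sets each gene's deviance against a chi-square expectation. Tested on simulated data, it called most large differences but few of the smallest size simulated. That size exceeded the spread of each of the 10 genes by TMM-scaled CPM, which was at most 1.75-fold (Rb1). A count of 0 of 10 therefore says little about differences of that size. DESeq2 1.42.0, other filters, dispersions, lengths, TPM denominators, pseudocounts and left-out replicates were alternatives. The named genes are the 10 members, their paralogs and, of each list fixed with the design, the highest, the lowest and any called gene; overlapping genes are named too. A listed gene that this rule names is not reported here. Other pathway genes named (Cdkn2a, Cdkn2d, Cdkn1c, Cdkn2c, E2f1, E2f4, E2f7, E2f8, Ccna2, Cdk1, Skp2, Cks1b) were chosen after their values were seen. So were the markers Pdgfrb and Sox1. With 3 libraries of 1 group, genes of like pattern were not sought. Ratios and permutations used scipy 1.17.1, pandas 2.3.3 and numpy 2.4.6 in Python 3.11.15, and plots matplotlib 3.10.9.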

Additional observations from a re-analysis of the deposited data

How the results depend on the processing

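The 8 ratios, the number of members expressed and the number varying between replicates were recomputed under 81 alternatives, 72 planned and 9 added after seeing the data. None of these reversed, 67 stayed within 1 SD of the replicates (ratios) or within 1.5 times the count (numbers of members), and 14 moved, all of them among the 8 ratios. The number of members at 1 TPM or above stayed at 9 when each replicate was left out, fell to 6 at a minimum of 5 TPM, and was 10 at 1 CPM or with TPM over protein-coding genes alone. Over all genes, 232 varied between replicates, 112 with size factors and fitted dispersions from DESeq2, and 63 to 93 with a replicate left out. The number of members varying between replicates stayed at 0 under all 8 of its alternatives, left-out replicates included. The mean TPM of each of the 10 members moved when short genes (Cdk4 417.6, Ccnd2 0.9645, Rb1 4.452) or all genes that are not protein-coding (Cdk4 783.8, Ccnd2 1.779, Rb1 8.367) were left out of the scaling; these alternatives of the means, and those of the 9 neighbouring pairs, were added after seeing the data. Of those pairs, Ccne2 over Cdk6 reversed by CPM, to -0.273, and 6 others moved by CPM.

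A pseudocount of 1 TPM gave log2 ratios of -1.91 for Ccnd1 over Ccnd3, 2.47 for Ccnd1 over Ccnd2, -4.38 for Ccnd2 over Ccnd3, 1.91 for Ccne1 over Ccne2, 5.78 for Cdk4 over Cdk6, -2.81 for Cdk2 over Cdk4 and -1.39 for Rb1 over Rbl1. CPM, which leaves gene length in, gave -1.43 for Ccnd1 over Ccnd3, -5.23 for Ccnd2 over Ccnd3, 1.34 for Ccne1 over Ccne2, 3.30 for Cdk4 over Cdk6, -1.50 for Cdk2 over Cdk4 and -1.26 for E-type over D-type cyclins. Annotated in place of effective length gave -2.70 for Cdk2 over Cdk4.

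Leaving out each replicate in turn gave 4.03 to 4.99 for Ccnd1 over Ccnd2, -2.13 to -2.03 for Ccnd1 over Ccnd3, -7.01 to -6.09 for Ccnd2 over Ccnd3, 2.05 to 2.33 for Ccne1 over Ccne2, -2.90 to -2.85 for Cdk2 over Cdk4, 6.30 to 6.65 for Cdk4 over Cdk6, -1.06 to -0.901 for E-type over D-type cyclins and -2.05 to -1.71 for Rb1 over Rbl1. The range of Ccnd1 over Ccnd2 and of Ccnd2 over Ccnd3 rests on replicate 2, without which they were 4.99 and -7.01.

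Depth limits Ccnd2 most, with 17 counts in replicate 3. No paired analysis was possible because 1 group alone was analysed, so replicate numbers pair nothing.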
